A study of Homo sapiens with 6 samples.

Results

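The genes of 10 collagen chains were followed in A498 cells, a line from a human clear cell kidney carcinoma, after knockdown of PTPRZ1. They are COL1A1, COL5A1 and COL5A2 of the fibrillar collagens, COL4A1, COL4A2, COL7A1 and COL18A1 of the basement membrane zone, COL6A1 and COL6A2 of the beaded microfilaments, and COL12A1, which binds along fibrils. The members are the rows whose Ensembl identifiers map to these symbols, 10 of the 61860 genes in the table, and all 10 had enough counts to be tested. RNA sequencing compared 3 control libraries (PTPRZ-nc) with 3 knockdown libraries (PTPRZ-Si), all of A498 cells grown in MEM with 10% fetal bovine serum. The labels name a plasmid for the control of the knockdown and siRNA for the knockdown itself. They give transfection and infection as the treatment of both groups. The means of delivery and the intended knockdown of PTPRZ1 therefore cannot be told apart. Whether a replicate is its own culture is not in the labels, so p-values here describe the scatter of these libraries, and it may be technical.

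Collagens are secreted proteins of 3 chains wound into a triple helix, which needs regularly spaced glycines and hydroxylated prolines to hold at body temperature. Fibrillar chains form the tensile cords of connective tissue. Type IV chains form the sheet under epithelia, type VII the fibrils that tie that sheet to the tissue below, and type XVIII carries heparan sulfate and releases endostatin from its end. Some trimers mix products of several genes, and in the kidney the type IV network is a main part of the basement membranes of tubules and glomeruli.

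Total counts ran from 13726908 to 21469746 per library. PTPRZ1 (ENSG00000106278) had 0 counts in each of the 6 libraries, which allows at most 0.0607 CPM (counts scaled by TMM to a common library size) over the 3 controls together, for counting error only. The knockdown therefore could not be checked on its target, and every direction rests on the labels. Of the markers set for a renal line, PAX8, VIM, KRT8 and KRT18 averaged 313, 1181, 1198 and 338 CPM in the controls, while CA9, a marker of clear cell tumours, averaged only 3.0 CPM. Control replicate 2, the shallowest library, had the highest control value for 7 of the 10 collagen chains, from 5.62% to 29.1% above the mean of the other controls in those 7. On the log2 scale those 7 stood from 0.08 (COL6A1) to 0.37 (COL1A1) above the other controls. Genes with over 56.3% GC also lay above the other controls in that library, by a median of 0.05 on the log2 scale. For the same genes the median was 0.02 in control replicate 1 and -0.07 in control replicate 3, each against the other controls. In their longest transcript 7 of the 10 chains are that rich in GC, but not the same 7. COL4A1 (55.4% GC) was highest in control replicate 2 and COL6A2 (66.4% GC) was not. The part of GC content in the values of that library was not tested.

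COL4A1 and COL4A2 supply the commonest type IV trimer, with 2 chains of COL4A1 to 1 of COL4A2, and are read in opposite directions from a shared stretch of chromosome 13. RefSeq places the first base of COL4A1 at 110307157 and that of COL4A2 at 110307284, with 126 bases between them (GRCh38.p14), whereas GENCODE starts COL4A1 at 110307233 and the first exon of COL4A2 in that stretch at 110307236. By GENCODE 124 of the 126 bases are exonic, so no sequence is shown for this pair. The 250 bases before the RefSeq start of COL7A1 (chr3:48595330-48595579, GRCh38.p14, minus strand) and of COL12A1 (chr6:75206054-75206303, minus strand) are shown for a chain that fell and the chain that rose. RefSeq starts COL7A1 at 48595329 and COL12A1 at 75206053, whereas GENCODE starts them at 48595267 and 75206051. Capitals mark matches, on either strand, to the letters GGGCGG for the GC box, CCAAT for the CCAAT box, TATAAA for the TATA box, TGANTCA for AP-1, GGAATG for TEAD and GCGNGGGCG for EGR1.

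COL7A1, before the start: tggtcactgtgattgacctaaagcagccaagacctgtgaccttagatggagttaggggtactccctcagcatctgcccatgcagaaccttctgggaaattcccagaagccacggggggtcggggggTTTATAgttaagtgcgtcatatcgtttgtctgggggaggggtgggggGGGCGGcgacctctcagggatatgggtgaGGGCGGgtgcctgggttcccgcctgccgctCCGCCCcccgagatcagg
COL12A1, before the start: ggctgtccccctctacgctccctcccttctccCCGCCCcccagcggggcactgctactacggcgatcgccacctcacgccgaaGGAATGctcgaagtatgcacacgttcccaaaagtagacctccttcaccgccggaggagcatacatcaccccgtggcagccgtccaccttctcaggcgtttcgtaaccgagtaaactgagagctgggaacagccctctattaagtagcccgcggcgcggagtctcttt

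COL7A1 has 3 GC boxes and 1 TATAAA on the other strand, and COL12A1 has 1 GC box and 1 match to the TEAD letters. Over all 35116 RefSeq windows of 250 bases before a start, 42.6% hold the GC box, 32% CCAAT, 10.7% TATAAA, 6.57% the AP-1 letters, 11.9% the TEAD letters and 8.41% the EGR1 letters. Promoter entries were found for 7 of the 10 members, and none of their 9 windows holds the AP-1 letters. A match describes the letters and does not show a bound factor.

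Of the 10 chains 7 were lower in the knockdown, 1 was higher (COL12A1) and 2 did not pass (COL4A2 and COL18A1) in edgeR's quasi-likelihood test at an adjusted p of at most 0.05. Over all 15476 tested genes 27.4% were called, 13.4% lower and 14.0% higher. For 8 of the 10 chains every library of one group lay beyond every library of the other, as for 40.8% of all tested genes. The median log2 fold change of the 10 chains was -0.36, against 0.0010 over all tested genes. Together the chains held 0.406%, 0.444% and 0.393% of the counts of the controls (replicates 1, 2 and 3, the order used throughout) but 0.352%, 0.338% and 0.354% of those of the knockdown. Fewer cells of a type and less RNA per cell cannot be told apart in bulk libraries such as these. Without control replicate 2, 6 chains were lower and 1 higher, the missing one being COL5A2. Of the 16052 genes tested in that fit 2161 were lower and 2264 higher.

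**Figure D1:**
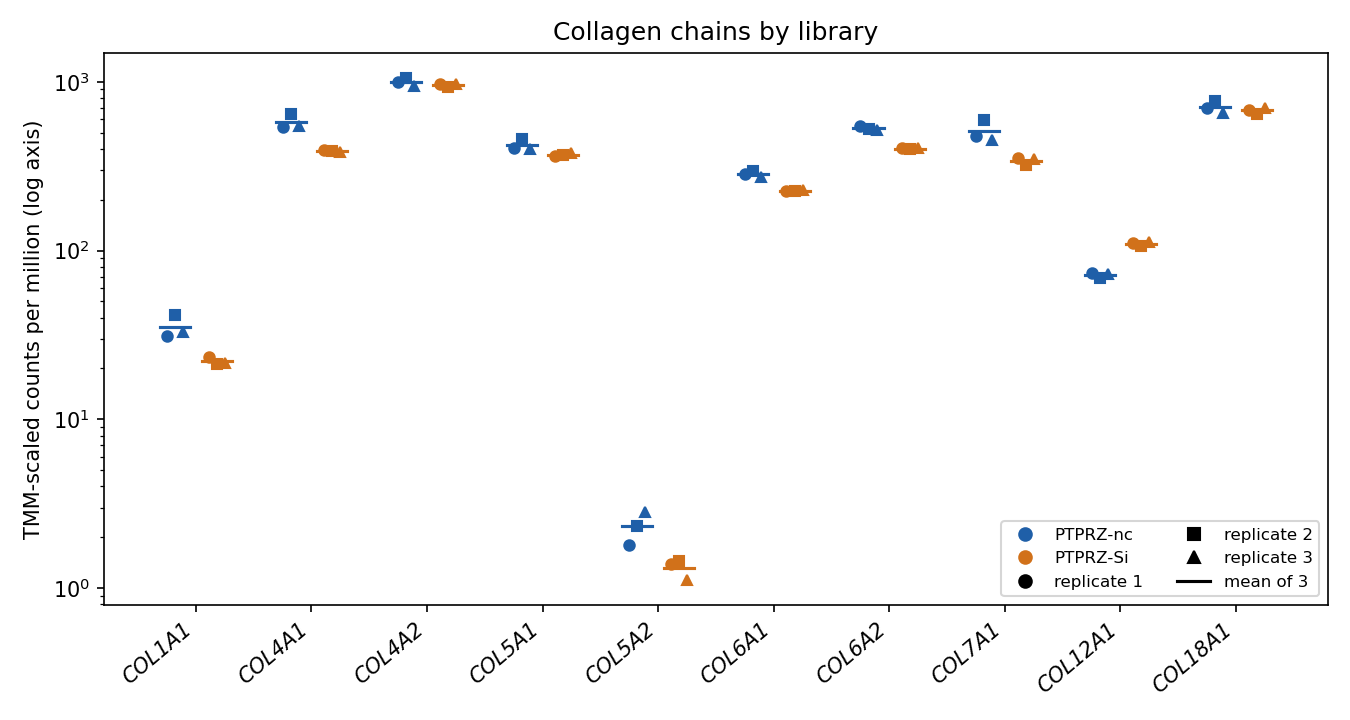
TMM-scaled CPM (log axis) of the 10 collagen chains in the 3 PTPRZ-nc libraries (blue) and the 3 PTPRZ-Si libraries (orange), with symbols for replicates 1, 2 and 3 and a line at the mean of 3. COL12A1 alone has its knockdown libraries (105.7 to 113 CPM) above its controls (68.9 to 74.1 CPM), and COL5A2 lies near 1 to 3 CPM, far below the others.

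COL4A1 (ENSG00000187498, GRCh38 chromosome 13 from 110148963 to 110307233, minus strand) encodes the alpha 1 chain of type IV collagen. Its level was 543, 647 and 549 CPM in control replicates 1, 2 and 3 and 397, 390 and 384 CPM in knockdown replicates 1, 2 and 3. All 3 knockdown libraries lay below all controls and within a narrow range, while control replicate 2 stood above the other controls. COL4A1 fell by 0.57 on the log2 scale (SE 0.0540, edgeR adjusted p = 5.61e-07), and without control replicate 2 the log2 fold change was -0.49.

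COL4A2 (ENSG00000134871, chromosome 13 from 110305812 to 110513209, plus strand), its partner from the same stretch of DNA, did not pass. The GENCODE spans of the pair overlap, but their exons share 0 bases. It had 991, 1051 and 947 CPM in the controls and 973, 934 and 975 CPM in the knockdown, so the groups overlapped. The log2 fold change was -0.05 (SE 0.0394, edgeR adjusted p = 0.355). It has 2 antisense genes, COL4A2-AS1 and COL4A2-AS2, with 28 and 12 counts over the 6 libraries, and strand was not used in the counting.

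The ratio of COL4A2 to COL4A1 counts, which needs no scaling between libraries, was 1.83, 1.63 and 1.73 in the controls, against 2.45, 2.40 and 2.54 in the knockdown. The knockdown ratios were thus all above the control ratios, with means of 1.73 ± 0.10 and 2.46 ± 0.0707 (SD, n = 3 each), 1.43-fold apart. An exact 2-sided permutation test gave p = 0.1, the smallest that 3 against 3 libraries allow, and 0.15 adjusted over the 3 ratios of partner chains. These are ratios of counts and not of molecules, since the transcripts differ in length.

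COL18A1 (ENSG00000182871, chromosome 21 from 45405137 to 45513720, plus strand), the source of endostatin, had 697, 768 and 654 CPM in the controls and 683, 647 and 702 CPM in the knockdown. The groups overlapped and the gene did not pass (log2 fold change -0.06, SE 0.05, edgeR adjusted p = 0.410). Of its exon bases 16.4% overlap exons of SLC19A1 on the opposite strand, a gene with 5384 counts over the 6 libraries. The counting command has no option to keep read pairs that lie on exons of both genes.

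COL7A1 (ENSG00000114270, chromosome 3 from 48564073 to 48595267, minus strand) encodes the single chain of the anchoring fibrils. It had 478, 595 and 454 CPM in the controls and 352, 322 and 348 CPM in the knockdown. Every knockdown library lay below every control, and control replicate 2 was again the highest. The gene fell by 0.58 on the log2 scale (SE 0.0718, edgeR adjusted p = 1.17e-05). Leaving out control replicate 2 gave -0.46, and the call held.

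COL1A1 (ENSG00000108821, chromosome 17 from 50183289 to 50201632, minus strand), the alpha 1 chain of type I collagen, had 31.3, 41.3 and 32.7 CPM in the controls and 23.4, 21.1 and 21.5 CPM in the knockdown. The groups did not overlap, and the gene fell by 0.67 on the log2 scale (SE 0.0965, edgeR adjusted p = 5.63e-05). COL1A2, whose product joins it in the usual type I trimer, had 0 counts in 5 libraries and 3 in knockdown replicate 3, and over the 3 controls a count of 0 allows at most 0.0607 CPM. COL3A1, the type III fibrillar chain, had 2 counts in all.

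COL5A1 (ENSG00000130635, chromosome 9 from 134641774 to 134844843, plus strand) encodes a type V chain, which sits inside type I fibrils and limits their width. It had 404, 458 and 399 CPM in the controls and 364, 368 and 378 CPM in the knockdown. The groups lay close without overlap, and the gene fell by 0.18 on the log2 scale (SE 0.0485, edgeR adjusted p = 0.00909), the smallest change among the called chains. Without control replicate 2 the log2 fold change was -0.12 and still passed, and without knockdown replicate 1 it did not pass (edgeR adjusted p = 0.0513).

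COL5A2 (ENSG00000204262, chromosome 2 from 189031896 to 189225312, minus strand), the partner of COL5A1 in the common type V trimer, was by far the least counted chain. Control libraries held 31, 32 and 53 counts of it and knockdown libraries 20, 30 and 24, or 1.81, 2.34 and 2.83 against 1.39, 1.44 and 1.12 CPM. It passed in edgeR (log2 fold change -0.83, SE 0.278, adjusted p = 0.0354) but not in DESeq2 (adjusted p = 0.0698). Leaving out control replicate 2 or 3, or any of the 3 knockdown replicates, also ended the call (edgeR adjusted p from 0.0577 to 0.164). For each count of COL5A1 there were 0.00448, 0.00510 and 0.00709 counts of COL5A2 among the controls, against 0.00383, 0.00391 and 0.00297 after knockdown. The exact 2-sided permutation test of that ratio gave p = 0.1, and 0.15 adjusted over the 3 ratios.

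COL6A1 and COL6A2 (ENSG00000142156, chromosome 21 from 45981737 to 46005050, and ENSG00000142173, from 46098097 to 46132849, both on the plus strand) lie next to each other in the same orientation and encode short chains of type VI collagen, the beaded filaments around cells. COL6A1 had 284, 294 and 274 CPM in the controls and 226, 224 and 227 CPM in the knockdown, a fall of 0.33 on the log2 scale (SE 0.0414, edgeR adjusted p = 1.35e-05). COL6A2 had 545, 525 and 518 CPM in the controls and 404, 399 and 403 CPM in the knockdown. It fell by 0.40 on the log2 scale (SE 0.0369, edgeR adjusted p = 4.38e-07). For neither gene did the groups overlap, and the knockdown libraries were within a few CPM of each other.

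The ratio of COL6A2 to COL6A1 counts was 1.92, 1.78 and 1.89 in the controls, against 1.78, 1.78 and 1.77 in the knockdown. The means, 1.87 and 1.78, differed by -0.07 on the log2 scale, and control replicate 2 lay among the knockdown ratios (exact 2-sided permutation p = 0.2, also 0.2 adjusted over the 3 ratios). With 3 against 3 libraries this does not show that the ratio stayed the same. The partner that completes the type VI trimer, COL6A3, had only 1.22 ± 0.371 CPM in the controls and 0.751 ± 0.240 CPM in the knockdown (SD, n = 3 each) and did not pass (edgeR adjusted p = 0.178).

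**Figure D2:**
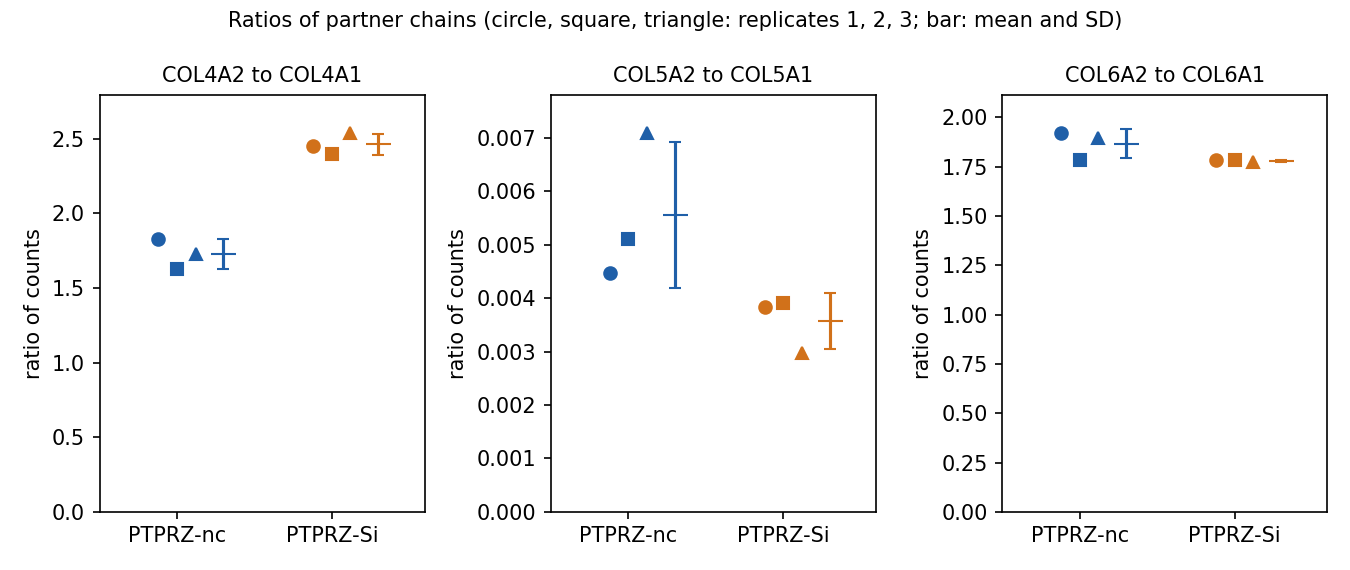
Ratio of counts of 2 partner chains in each library, for PTPRZ-nc (blue) and PTPRZ-Si (orange), with the mean and SD of 3 beside the points. The COL4A2 to COL4A1 ratio is 1.63 to 1.83 in the controls and 2.40 to 2.54 in the knockdown, and the COL6A2 to COL6A1 ratio is 1.78 to 1.92 in the controls and 1.77 to 1.78 in the knockdown.

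COL12A1 (ENSG00000111799, chromosome 6 from 75084326 to 75206051, minus strand) was the chain that rose. It encodes type XII collagen, which lies along fibrils and links them to other matrix proteins. It had 74.1, 68.9 and 72.5 CPM in the controls and 110.3, 105.7 and 113 CPM in the knockdown. The knockdown libraries were all above the controls, 1.52-fold higher in the fit (log2 fold change 0.61, SE 0.0516; edgeR adjusted p = 1.64e-07). Its rise was between 0.54 and 0.63 on the log2 scale under all 17 other settings, and it passed in each.

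Levels of different chains can be compared only per length. In CPM per kb of exon, COL6A2 was the highest in the controls at 98.3 ± 2.54, followed by COL18A1 at 82.9 ± 6.78 and COL6A1 at 53.1 ± 1.92 (SD, n = 3 each). COL4A2 (51.7 ± 2.71), COL7A1 (46.0 ± 6.78), COL4A1 (39.3 ± 3.95) and COL5A1 (37.6 ± 2.93) came next, and from COL6A1 down to COL5A1 each chain overlapped the next in its control libraries. COL12A1 at 5.76 ± 0.212, COL1A1 at 3.57 ± 0.553 and COL5A2 at 0.312 ± 0.0682 stood apart below. In the knockdown COL18A1 was first at 79.4 ± 3.31 and COL6A2 second at 74.6 ± 0.502 CPM per kb. The order of the upper chains depends on the length used: with the longest transcript in place of all exon bases COL4A2 (153 ± 8.04 CPM per kb) and COL6A2 (153 ± 3.95) were at the top in the controls, and their libraries overlapped.

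The 34 other collagen genes of the table were mostly too low to test. Of the 14 that were tested 3 were higher, 1 was lower and 10 did not pass, with a median log2 fold change of -0.24. Over all tested genes 14.0% were higher and 13.4% lower. The median gives each gene the same weight, whatever its level. Summed over the 34 genes, the level was 380, 423 and 379 CPM in the controls and 439, 417 and 433 CPM in the knockdown, so the groups overlapped. COL27A1, a fibrillar chain of cartilage, rose from 231 ± 11.9 to 263 ± 6.07 CPM (n = 3 each, SD; edgeR adjusted p = 0.00412). COL8A1, a short-chain network collagen, rose from 35.8 ± 1.45 to 42.6 ± 0.353 CPM (edgeR adjusted p = 0.00833). The third that rose, COL24A1 (log2 fold change 1.19), and COL5A3, the third type V chain, which fell by 1.08 on the log2 scale, were both under 2 CPM. COL24A1 did not pass without control replicate 1 or 3 or knockdown replicate 3. The call of COL5A3 was lost without control replicate 1 or 2 or knockdown replicate 1 or 2.

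The other type IV chains, which form separate trimers in the glomerulus and elsewhere, did not pass. COL4A5 had 57.6 ± 7.50 CPM in the controls and 63.2 ± 2.42 CPM in the knockdown (n = 3 each, SD; edgeR adjusted p = 0.191), and passed as higher without control replicate 2 (log2 fold change 0.24). COL4A4 had 3.60 ± 0.690 and 2.39 ± 0.378 CPM and passed as lower without control replicate 3 (log2 fold change -0.70). COL4A3 and COL4A6 were under 1 CPM in both groups. COL13A1 (log2 fold change -0.36), COL16A1 (0.02), COL17A1 (-0.32), COL22A1 (-0.17) and COL9A2 (0.96) did not pass either. COL13A1 passed as lower without a filter on low counts and without control replicate 3 (log2 fold changes of -0.37 and -0.51). Among the untested genes COL11A2, with 3 counts, is in the 29 to 34 Mb part of chromosome 6, in which 172 of 182 genes coding for protein had fewer than 100 counts, so it is not shown to be silent.

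**Figure D3:**
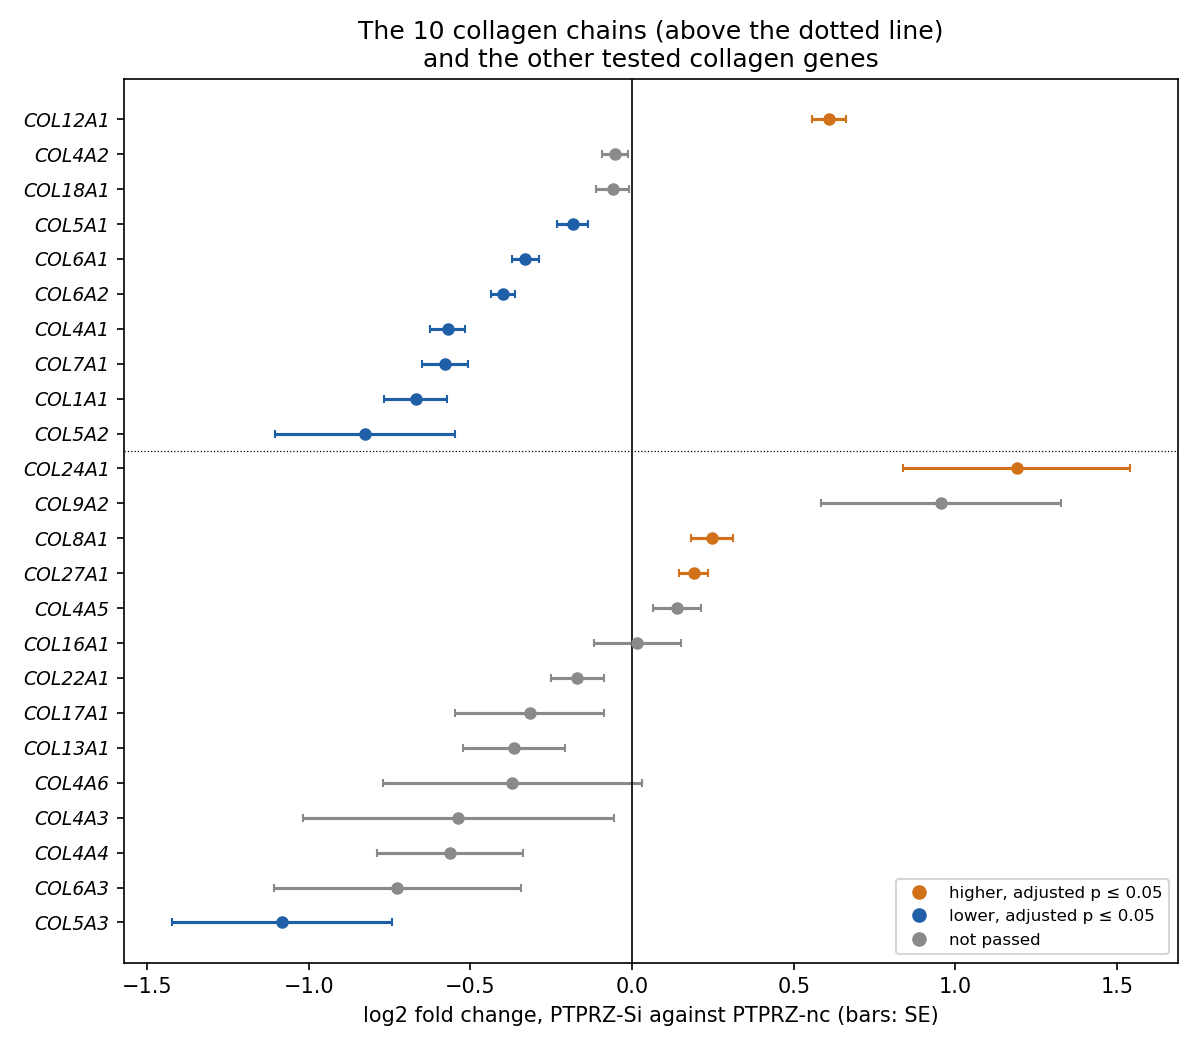
Log2 fold change of PTPRZ-Si against PTPRZ-nc, with its SE, for the 10 collagen chains (above the dotted line) and the 14 other tested collagen genes (below), coloured by the edgeR call. The chains run from -0.83 (COL5A2) to 0.61 (COL12A1), and bars are widest for genes of few counts.

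Markers of fibroblasts and mural cells, which make much of the collagen of a tissue, summed to 7.89 to 11.7 CPM in the controls and 7.11 to 7.73 CPM in the knockdown over the 10 genes of the list. Of these 8 had too few counts to test, LUM had 0 counts in all libraries, DCN had 4 and PDGFRA 2 over the 6 libraries, and RGS5 and ACTA2 did not pass. CDH5 of endothelium and PTPRC of leukocytes also had 0 counts in each library. Of the 9 renal markers 5 rose, 1 fell and 3 did not pass, where 14.0% of all tested genes rose and 13.4% fell. VIM, the filament protein of mesenchymal cells, fell from 1181 ± 47.1 to 788 ± 28.9 CPM, while CDH6, a cadherin, rose from 74.0 ± 8.13 to 155 ± 4.68 CPM and PAX8, a transcription factor of the kidney, from 313 ± 21.3 to 556 ± 22.4 CPM (n = 3 each, SD). PAX2, KRT18 and KRT8 rose as well (log2 fold changes of 0.37, 0.18 and 0.13), and CA9, CDH2 and NNMT did not pass. The part of these shifts in the collagen results was not tested.

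Collagen chains are folded and modified in the endoplasmic reticulum by a set of dedicated enzymes. Of 19 tested members of that list 6 were lower, 4 higher and 9 did not pass (median log2 fold change -0.10, against 0.0010 over all tested genes). Of all tested genes 13.4% were lower and 14.0% higher. P4HA2, a catalytic subunit of prolyl 4-hydroxylase, fell from 179 ± 5.54 to 93.5 ± 6.34 CPM (n = 3 each, SD; edgeR adjusted p = 1.25e-09), while another catalytic subunit, P4HA1, rose from 54.2 ± 2.81 to 70.7 ± 1.08 CPM (edgeR adjusted p = 7.43e-05). P4HB, which pairs with both and also forms disulfides, fell from 1416 ± 66.9 to 1087 ± 17.7 CPM. COLGALT1, which adds galactose to hydroxylysine, fell by 0.37 on the log2 scale, and CRTAP, of the prolyl 3-hydroxylase complex, had a log2 fold change of 0.30 and passed. FKBP14, a prolyl isomerase, rose from 35.5 ± 1.49 to 61.6 ± 2.39 CPM. SERPINH1, the chaperone of the triple helix, had 524 ± 38.7 and 488 ± 7.92 CPM and did not pass (edgeR adjusted p = 0.117). Without control replicate 3 SERPINH1 passed as lower (edgeR adjusted p = 0.0324).

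Secretion, trimming and cross-linking follow. Of 22 tested members 6 were lower, 4 higher and 12 did not pass (median -0.03). The shares over all tested genes were 13.4% lower and 14.0% higher. KLHL12, an adaptor for the large transport carriers of procollagen, fell from 60.6 ± 4.10 to 42.1 ± 2.58 CPM (n = 3 each, SD). The proteases ADAMTS2 and BMP1, which remove the ends of fibrillar procollagens, fell by 0.39 and 0.33 on the log2 scale, and TLL2, related to BMP1, rose by 0.58. LOXL2, an oxidase that cross-links collagen, fell from 1250 ± 62.7 to 1042 ± 28.4 CPM. PXDN, the peroxidase that links type IV trimers end to end, fell by 0.13 on the log2 scale (SE 0.0295, edgeR adjusted p = 0.00341), from 2032 ± 27.5 to 1859 ± 20.4 CPM.

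Of 7 tested collagen receptors 2 were higher, 1 was lower and 4 did not pass (median 0.08). The shares over all tested genes were 14.0% higher and 13.4% lower. DDR2, a receptor kinase for fibrillar collagen, rose from 5.46 ± 0.524 to 10.8 ± 1.93 CPM (n = 3 each, SD; edgeR adjusted p = 0.000131). ITGB1, the beta chain of the collagen-binding integrins, fell from 1486 ± 18.8 to 1292 ± 26.3 CPM, and its partner ITGA1 rose slightly (log2 fold change 0.16, edgeR adjusted p = 0.0416). That call of ITGA1 was lost in 11 of 17 alternatives, among them DESeq2 and the fits without control replicate 1 or 2 or any of the knockdown replicates. MRC2, an endocytic collagen receptor (-0.11), ITGA11 (0.08) and ITGA10 (0.22) did not pass. MRC2 passed as lower without control replicate 3 and with GC offsets (edgeR adjusted p = 0.0252 and 0.0155). DDR1 lies in the same part of chromosome 6 as COL11A2 and had 19 counts in all, so it is not shown to be silent.

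Of 14 tested partners of type IV collagen in the basement membrane 5 were lower, 0 higher and 9 did not pass (median -0.07). Among all tested genes 13.4% were lower and 14.0% higher. LAMA4, a laminin alpha chain, fell from 29.3 ± 1.88 to 18.9 ± 1.71 CPM and AGRN, the heparan sulfate proteoglycan agrin, from 2055 ± 162 to 1637 ± 44.9 CPM (n = 3 each, SD). The laminin beta chains LAMB3 and LAMB2 fell by 0.21 and 0.18 on the log2 scale, and NID1, which bridges laminin and type IV collagen, by 0.13. LAMA1 (0.12) did not pass, nor did HSPG2, perlecan, at 528 ± 20.3 and 534 ± 15.1 CPM. NID1 did not pass without control replicate 1 or 3 or any knockdown replicate, and LAMA1 passed as higher without control replicate 2.

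Of 16 proteases listed as cutting collagen or its fragments 8 were tested, and 2 were lower, 0 higher and 6 did not pass (median -0.09). Among all tested genes 13.4% were lower and 14.0% higher, or 27.4% called. PREP, a prolyl peptidase, fell from 37.5 ± 2.73 to 28.9 ± 0.969 CPM (n = 3 each, SD; edgeR adjusted p = 0.00103), and CTSB, a cathepsin, fell by 0.11 on the log2 scale (edgeR adjusted p = 0.0470). That call of CTSB was lost without control replicate 1 or 3 or any knockdown replicate. MMP14, a membrane collagenase, had 469 ± 19.3 and 443 ± 11.6 CPM and did not pass, like MMP15 (0.09), CTSL (-0.10) and CTSK (-0.14). CTSL passed as lower without control replicate 3 (edgeR adjusted p = 0.0467). The secreted collagenases MMP1 and MMP8 had 2 and 0 counts over the 6 libraries. MMP13, also a secreted collagenase, had 1.18 ± 0.160 and 1.31 ± 0.380 CPM and did not pass (edgeR adjusted p = 0.819).

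**Figure D4:**
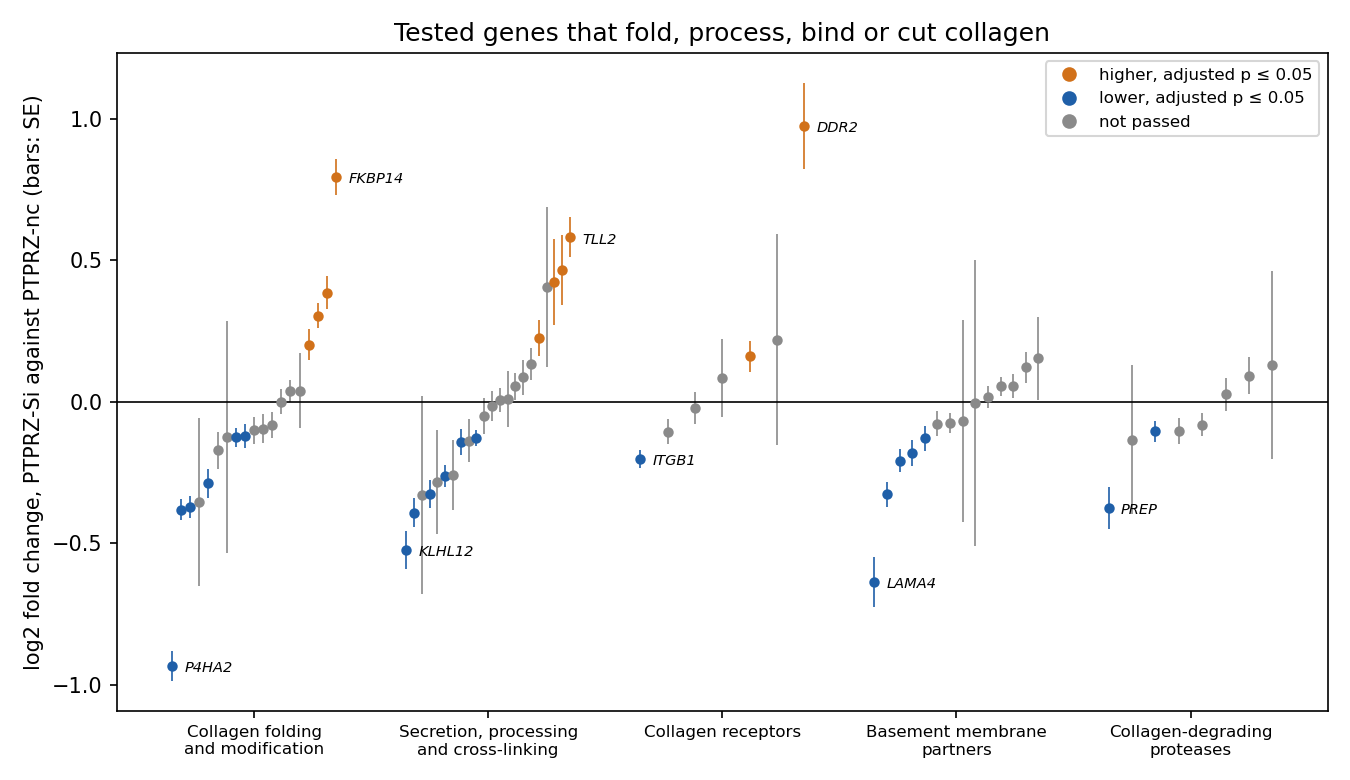
Log2 fold change of PTPRZ-Si against PTPRZ-nc, with its SE, for each tested gene that folds, processes, binds or cuts collagen, in 5 lists and coloured by the edgeR call. Calls run in both directions in the first 3 lists, from P4HA2 (-0.93) to DDR2 (0.97), and only downward in the lists of basement membrane partners and proteases.

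The genes whose CPM followed COL4A1 most closely on the log2 scale over the 6 libraries, among 10992 compared, each averaging 5 CPM or more, were ITPKA, NUP205 and PPM1K (Pearson r of 0.999, 0.999 and 0.998). Those most like COL12A1 were SSH1, HEG1 and NR2F1 (r of 0.9998, 0.999 and 0.999). With 6 libraries in 2 groups, many genes that differ between the groups reach such values, and the 6 points share library and depth.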

How the data were processed

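What the authors deposited is a table of counts: read pairs per gene, as whole numbers without normalization. Per the file headers, featureCounts 2.0.1 counted pairs over exons by gene (Ensembl 107 for GRCh38), with no strand option and none to keep pairs with several placements. The alignments' names contain hisat, with no version. Per the labels' protocols, the library kit was directional. The submitters' processing notes give hg38.

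Groups and replicate numbers are the labels'. A gene name table gave symbols for 42054 genes and GENCODE 29 for 16371 more. Coordinates, exon lengths and GC content are from GENCODE 29 (GRCh38) and promoter sequences from RefSeq (GRCh38.p14). After filterByExpr 15476 genes remained. They were fitted in edgeR 4.0.16 (R 4.3.3) with TMM scaling, glmQLFit and glmQLFTest. The tests were 2-sided, p was adjusted over all tested genes (Benjamini-Hochberg), and calls needed an adjusted p of 0.05 or less. SEs derive from the log2 fold change and its F value. Limits for a count of 0 use 3 counts and cover counting error only. No replicate looked like a copy of another: within groups, chi-square per degree of freedom was 2.16 to 6.11.

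The alternatives were other scalings (size factors of DESeq2, library totals, upper quartile), other filters, DESeq2 1.42.0, limma-voom (limma 3.58.1), a replicate block, each library left out and, for levels, the longest transcript. Offsets for GC content or length, and leaving out control 2 with knockdown 2, were chosen after seeing the data. The fit was tested on simulated data. The members and lists were chosen with earlier results of these data known. Genes named were the members, the tested collagens, at most 6 of each other list by smallest p, SERPINH1, P4HB, PXDN, HSPG2, ITGB1, and the 3 genes most like COL4A1 and COL12A1. Untested genes, markers and MMP13 were named after their values were seen.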

Additional observations from a re-analysis of the deposited data

How the results depend on the processing

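COL12A1 was called higher, and COL1A1, COL4A1, COL6A1, COL6A2 and COL7A1 lower, under each of the 17 alternatives run, while COL4A2 and COL18A1 passed under none. GC offsets gave 7 chains lower and 1 higher, and over all 15476 tested genes 2160 lower and 2255 higher. In all, 161 of 169 values of the 10 chains kept their side of the threshold. The other 8 were 1 of COL5A1 and 7 of COL5A2, and the cause was not tested. With each library left out in turn the log2 fold change ran from -0.22 to -0.12 for COL5A1 and from -0.98 to -0.65 for COL5A2. For COL5A2 it was -0.83 in DESeq2 and -0.90 without control 2 and knockdown 2, neither of which passed, and the filter at a mean of 5 CPM removed this gene.

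Among the companion lists the small counts of calls moved. Other collagens had 2 lower without a filter, 0 with the filter at 5 CPM, 0 without control 2 and knockdown 2, and 0 to 3 with a library left out (1 as reported, 3 without control 3). Receptors had 1 higher (2 as reported) with library totals, no filter, DESeq2, the replicate block, length offsets and without control 2 and knockdown 2, and 1 to 2 with a library left out. They had 2 lower with GC offsets and 1 to 2 with a library left out (2 without control 3). Basement membrane partners had 1 higher without control 2 and knockdown 2, and 0 to 1 with a library left out (1 without control 2). Proteases had 0 to 1 higher with a library left out (1 without knockdown 1), and 1 lower (2 as reported) without a filter, with the filter at 5 CPM, with the replicate block and with length offsets, and 1 to 2 with a library left out. Secretion, processing and cross-linking had 2 to 4 higher with a library left out (2 without knockdown 1). Of the 771 values of the 46 other named genes, 34 lost and 11 gained a call, and none reversed.

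With the longest transcript as the length, control levels in CPM per kb were 153.5 for COL4A2, 153 for COL6A2, 107.3 for COL18A1, 87.6 for COL4A1, 67.0 for COL6A1, 54.9 for COL7A1, 49.6 for COL5A1, 6.13 for COL12A1 and 5.21 for COL1A1.

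Deviations from the group means correlated at 0.0271, 0.0333 and 0.0226 between libraries of the same number, and at -0.0234 to -0.00517 between those of different numbers. Each library thus correlated best with its own number, but weakly. The labels do not say what a number shares, and correlations this small do not settle whether the numbers pair the libraries. With the replicate block 2123 genes were higher and 1978 lower, against 2164 and 2079 without, and the block changed no call of a chain. Of the other named genes, ITGA1, NID1 and CTSB did not pass with the block (edgeR adjusted p = 0.0652, 0.0517 and 0.0858), and it changed no other call. COL5A2, with 20 to 53 counts per library, is the chain whose depth limits it most.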
